A study of Mus musculus with 48 samples.

Results

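Genes of the phase II conjugation enzymes, the Gst, Ugt and Sult families, were followed in the liver of mice that differed in Pparα and in diet. They were taken by their names on the array: a symbol of Gst plus a letter and a digit, or one that begins with Ugt1a, Ugt2, Ugt3 or Sult and a digit. This gave 53 genes (20 Gst, 14 Ugt and 19 Sult) with 76 probes, of 37074 gene names on the array. Of these, 43 genes (18 Gst, 14 Ugt and 11 Sult) had a probe that was bright enough to test, among 22029 gene names and 33323 probes tested in all. A probe had to be well above background in at least 4 of the 8 mice of some group to be tested. A gene is described by its brightest tested probe. The 10 genes without a tested probe were Gsto2, Gstt4, Sult2a1, Sult2a2, Sult2a3, Sult2a4, Sult2a5, Sult2a6, Sult3a1 and Sult6b1, so most of the Sult2a cluster was too dim to be followed.

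Phase II conjugation enzymes couple glutathione, glucuronic acid or sulfate to drugs, hormones, bile acids and lipid peroxidation products, which makes them soluble enough to be excreted. Glutathione S-transferases (the Gst genes of the alpha, kappa, mu, omega, pi, theta and zeta classes) are cytosolic or mitochondrial enzymes. UDP-glucuronosyltransferases (Ugt1a and Ugt2) and their relatives of the Ugt3 family sit in the endoplasmic reticulum. Cytosolic sulfotransferases (Sult) take sulfate from the donor PAPS. The liver is the main site of all of these reactions. Many of the genes are known targets of the xenobiotic receptors CAR, PXR and Ahr or of the oxidant-responsive factor Nrf2. PPARα is the nuclear receptor that senses fatty acids in hepatocytes.

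Liver RNA of 48 male C57Bl6J mice aged 20 weeks was hybridised to 48 one-colour arrays, 8 mice in each of 6 groups. Wild-type mice (WT), mice without Pparα in hepatocytes (Pparα hep-/-, in which an albumin promoter drives Cre and removes a floxed exon) and mice without Pparα in any cell (Pparα -/-) were fed a control diet (CTRL) or one with 60% fat (HFD). By the sample labels the diets lasted 12 weeks, and the study's text gives a shorter time. The study also states that all mice were kept at thermoneutrality, and that they were killed in the fed state. By its methods the WT mice were bought from a breeder while both mutant lines were bred in house, so genotype and origin of the mice cannot be told apart. Each sample is whole liver, in which fewer cells of a type and less RNA per cell cannot be told apart.

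Each signal below is a log2 value after quantile normalization, on which 1 unit is a doubling, and it is not comparable between probes. Differences are log2 fold changes from 1 limma fit over all 33323 probes, with weights for the arrays and the wash batch as a term. The p-values were adjusted by the Benjamini-Hochberg method over all probes within a comparison. A gene is said to have changed, or to be higher or lower, where its adjusted p was at most 0.05.

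The differences described for single genes rest on what 1 probe of 60 bases detects. The central 30 bases (bases 16 to 45) are given 5′ to 3′ for the genes with the largest differences and for 3 Gstm genes that moved side by side. Positions are those of the whole probe in the scanner files (mm9).
Sult1e1, chr5:88005187-88005246: cacttccttgtgtctgaaattagagtagtc
Sult2a7, chr7:15050514-15050573: taccaggagaaaatggctggtttccctata
Gsta2, chr9:78178856-78178915: ctctaattgtttgcaattataaaatacaat
Gstm1, chr5:117082490-117082549: agcctccccaggcctgtctcatctacaata
Gstm3, chr3:107766730-107766789: ggtcaatactatcttagtgacggccctccc
Gstm4, chr3:107846495-107846847: tgggcctggactttcccaatttgccttact
The brightest probes of the 43 tested genes carried accessions that RefSeq lists under the same symbol. The Gstm1 probe is placed on chromosome 5 by the scanner files although RefSeq places the gene on chromosome 3, so its signal carries that doubt. A dimmer Gstm1 probe, placed on chromosome 3, gave 1.14 (adjusted p = 2.92e-06) for Pparα hep-/- and 0.85 (adjusted p = 7.14e-05) for Pparα -/- against WT mice on HFD, close to the values of the brighter one given further on. Members of these families are close paralogs. Their probes were compared with each other and not with the transcripts, so these runs cannot show whether a probe also detects a paralog. No pair among the 7 Gstm probes shared a run of more than 9 bases, and of 903 probe pairs only 1 shared a run of at least 15. That pair was Ugt2b5 and Ugt2b37, whose probes had 18 bases in common (capitals below) and matched at 46 of 55 aligned bases. Whether either transcript adds to the other's signal was not tested. Bases 1 to 30 of the first and 5 to 34 of the second are shown.
Ugt2b5, chr5:87554155-87554214: gaacaAACTTTCAGCCTCATTCTtatttat
Ugt2b37, chr5:87669707-87669766: tgaatgAACTTTCAGCCTCATTCTaattta

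All 8 hepatocyte markers were well above background on all 48 arrays, and their summed signal lay between 20.59 and 20.81 in every group. The brighter of the 2 Ppara probes was lower in the mutants than in WT mice. On CTRL the difference was -0.42 (adjusted p = 0.000887) for Pparα hep-/- and -0.65 (adjusted p = 1.1e-06) for Pparα -/- mice, and on HFD it was -0.85 (adjusted p = 5.12e-10) and -1.08 (adjusted p = 2.77e-14). The other Ppara probe fell by 1.11 in Pparα -/- mice on CTRL (adjusted p = 5.27e-13). Its value in Pparα hep-/- mice on CTRL was -0.10 (adjusted p = 0.454). On HFD it was lower than WT in both mutants, with -0.68 (adjusted p = 3.34e-08) for Pparα hep-/- and -1.29 (adjusted p = 1.74e-17) for Pparα -/- mice. Signal remained on both probes in every group. Whether these probes lie in the deleted part is not known here. Between 28234 and 38217 of 59305 spots were well above background per array and none was saturated. Along the axis from the other CTRL mice (0) to the other HFD mice (1) of the same genotype, WT HFD mice 1 and 2 lay at 0.21 and 0.10 against 1.09 to 1.46 for the other 6. Pparα hep-/- CTRL mouse 1 lay at 1.02 against -0.50 to 0.24 for the other 7. That mouse and WT CTRL mouse 6 had the lowest array weights, 0.19 and 0.21. The arrays were washed in 2 batches that each hold 3 to 5 mice of every group.

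The diet and both deletions changed conjugation genes in every comparison, at a share close to or above that of all probes. HFD changed 15 of the 43 genes in WT mice, 11 higher and 4 lower (34.9%, against 18.7% of all probes, 8.6% higher and 10.1% lower). In Pparα hep-/- mice HFD changed 17 genes, 8 higher and 9 lower (39.5%, against 20.2% of all probes, 9.46% higher and 10.8% lower). In Pparα -/- mice it changed 14, 7 higher and 7 lower (32.6%, against 24.8% of all probes, 12.2% higher and 12.6% lower). On CTRL, 17 genes separated Pparα hep-/- from WT mice, 14 of them higher and 3 lower without hepatocyte Pparα (39.5%, against 24.7% of all probes, 11.3% higher and 13.4% lower). Between Pparα -/- and WT mice there were 16, 12 higher and 4 lower (37.2%, against 34.2% of all probes, 15.6% higher and 18.7% lower). The mutants differed from each other for 16 genes, 9 higher and 7 lower in Pparα -/- (37.2%, against 25.2% of all probes, 12.2% higher and 13% lower). On HFD, Pparα hep-/- mice differed from WT for 14 genes, 10 higher and 4 lower (32.6%, against 26.7% of all probes, 13.3% higher and 13.4% lower). Pparα -/- mice differed from WT for 21 genes, 15 higher and 6 lower (48.8%, against 45.7% of all probes, 21.8% higher and 24% lower), and from Pparα hep-/- mice for 14, 7 higher and 7 lower (32.6%, against 30.6% of all probes, 15.2% higher and 15.4% lower). For Pparα -/- against WT mice on either diet and between the mutants on HFD, the share was close to that of all probes. The comparisons share groups, so these counts are not separate pieces of evidence. The median change over the 43 genes ranged from -0.05 for HFD in Pparα -/- mice to 0.20 for Pparα hep-/- against WT on CTRL, and that over all probes from -0.0268 to 0.0013.

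Few of the 43 genes had groups that did not overlap at all. Between the diets these were 2 genes in WT mice (0.603% of all probes), 0 in Pparα hep-/- mice (0.591%) and 1 in Pparα -/- mice (1.44%). On CTRL they were 0 genes for Pparα hep-/- against WT (1.31% of all probes), 5 for Pparα -/- against WT (6.15%) and 3 between the mutants (4.43%). On HFD they were 1 (1.44%), 3 (6.93%) and 3 genes (6.55%) in the same order. The 5 genes for Pparα -/- against WT on CTRL were Sult2a7, Sult1b1, Gstz1, Ugt3a1 and Ugt3a2, each of them higher without Pparα at the probe tested. The dimmer Gstz1 probe gave -0.07 (adjusted p = 0.428) there.

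**Figure D1:**
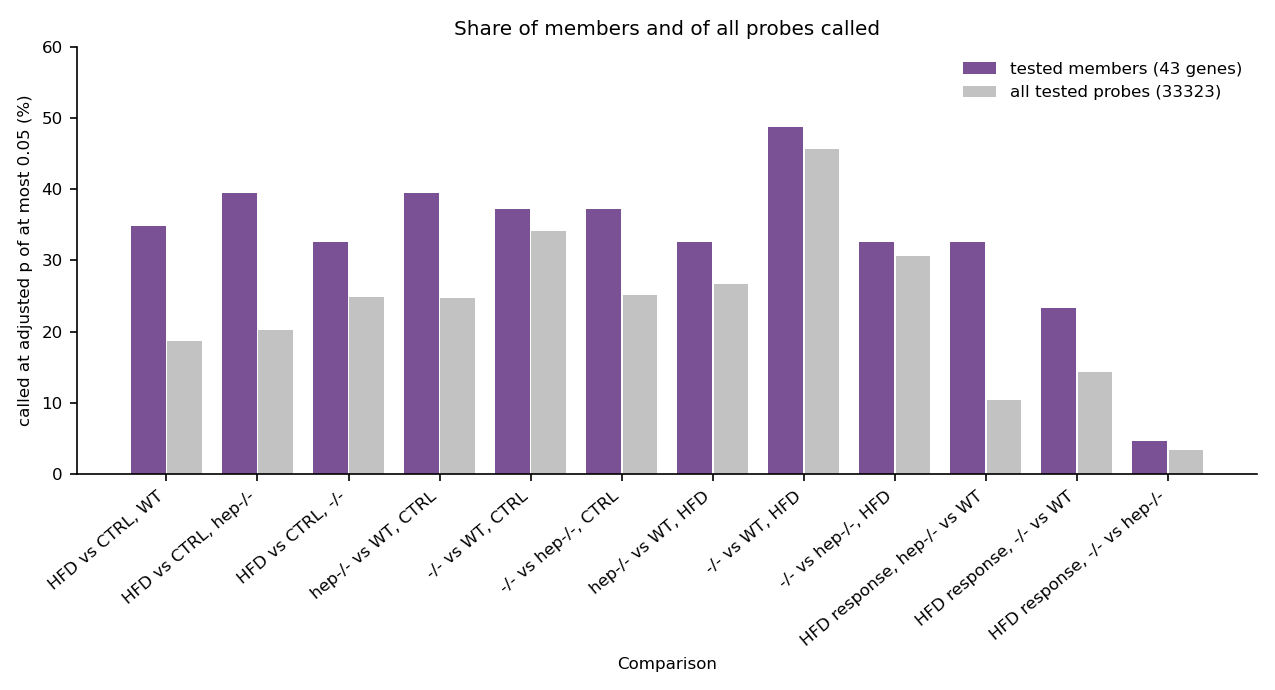
Share of the 43 tested conjugation genes that were called (adjusted p of at most 0.05, percent on the y axis), beside the share of all 33323 probes. There are 12 comparisons, 9 between groups and 3 of the response to HFD. The 2 shares are farthest apart for the response of Pparα hep-/- against WT mice (32.6% against 10.4%). They are closest for the response of Pparα -/- against Pparα hep-/- mice (4.65% against 3.42%).

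The counts depended on how the arrays were weighted and, in direction, on how they were scaled. Without array weights, 7 of the 12 counts moved by more than 1.5 times. HFD then changed 4 genes in Pparα hep-/- mice, 2 higher and 2 lower (3.81% of all probes changed). It changed 7 in Pparα -/- mice, 1 higher and 6 lower (12.1%). Against WT on HFD, 9 genes were called in Pparα hep-/- mice, all higher (9.74%), and between the mutants 7, 3 higher and 4 lower (18.1%). With the 4 arrays named above left out and weights kept, HFD changed 18 genes in WT mice (21.4% of all probes), 19 in Pparα hep-/- mice (23.1%) and 15 in Pparα -/- mice (25.1%). With those arrays left out and no weights, the counts in the same order were 18 (20.6%), 12 (9.94%) and 15 (19%).

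With the scanner's processed signal scaled to the 75th percentile, HFD raised 4 genes and lowered 9 in Pparα hep-/- mice (25% of all probes changed), and raised 3 and lowered 11 in Pparα -/- mice (26.4%). With that scaling, 9 genes were higher and 8 lower for Pparα hep-/- against WT on HFD (32.8%), and 8 higher and 10 lower for Pparα -/- against WT on HFD (49.1%).

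**Figure D2:**
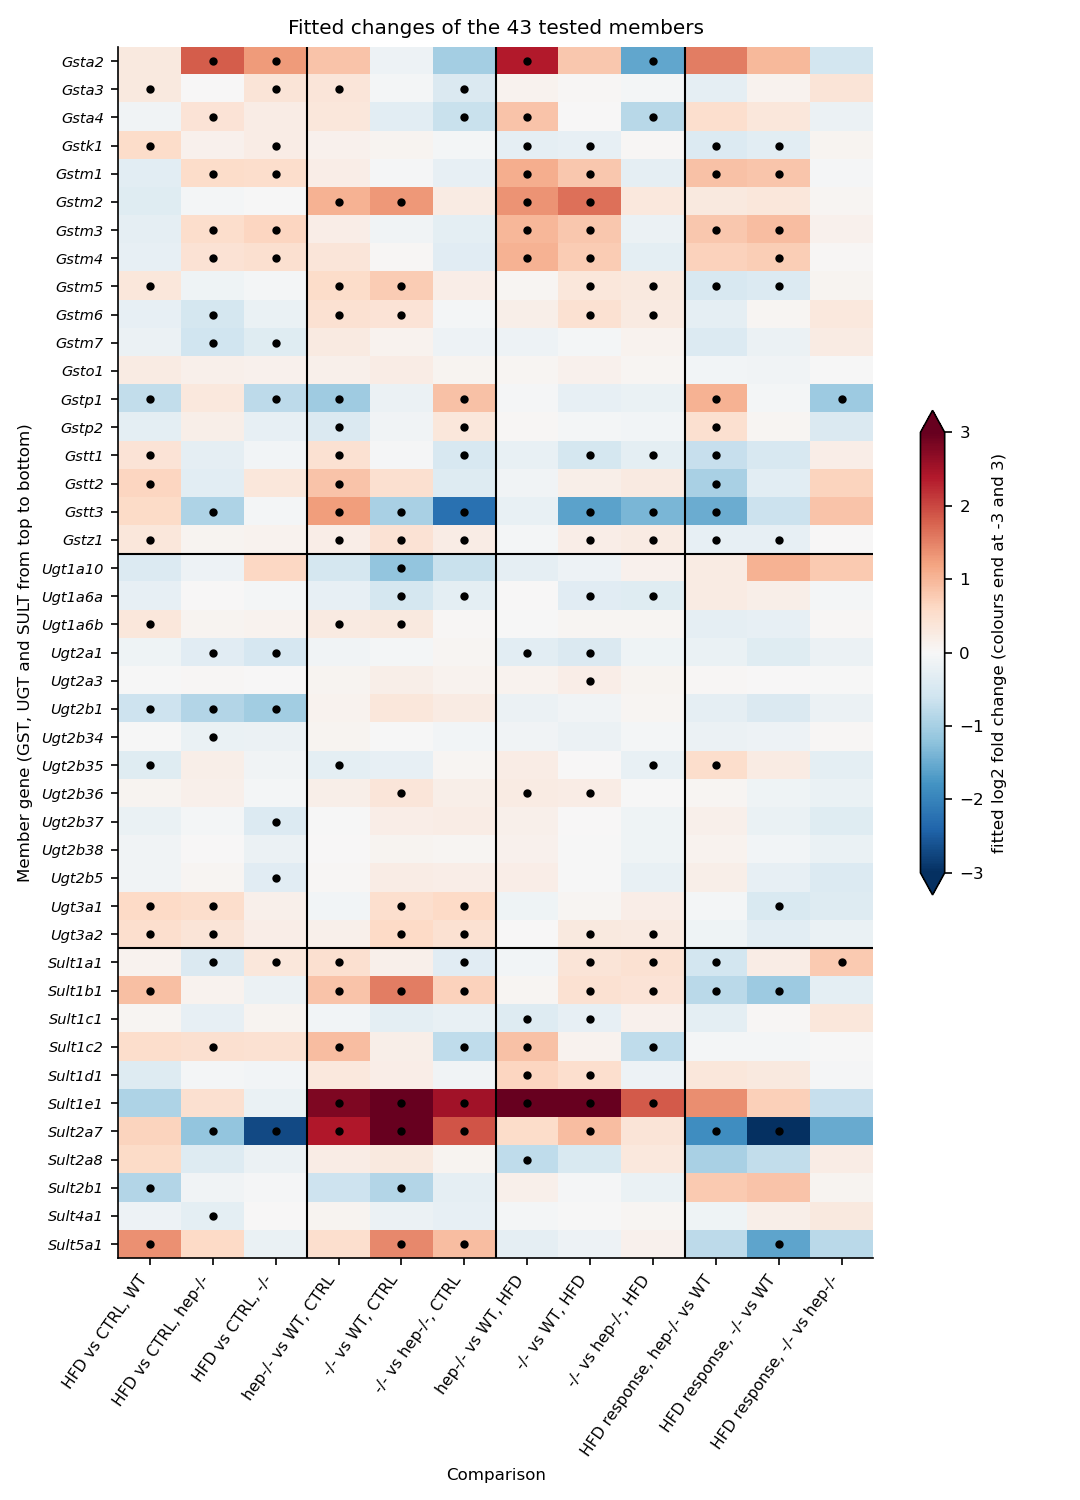
Log2 fold change of each of the 43 tested genes (rows, grouped as GST, UGT and SULT) in the 12 comparisons (columns), 9 between groups and 3 of the response to HFD. The colour scale is in log2 units, and calls at an adjusted p of at most 0.05 are marked. Sult1e1 and Sult2a7 carry the deepest colours, and Sult1e1 and Gstm2 are higher in both mutants on both diets.

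Among the sulfotransferases, the estrogen sulfotransferase gene Sult1e1 showed the largest differences of all 43 genes and followed the genotype. On CTRL its signal ran from 5.62 to 11.72 (median 6.75) in WT mice, from 8.66 to 11.27 (median 10.31) in Pparα hep-/- mice and from 11.30 to 13.72 (median 12.74) in Pparα -/- mice. On HFD it ran from 5.90 to 8.31 (median 6.49), from 9.48 to 12.42 (median 10.23) and from 9.34 to 14.60 (median 12.86) in the same order. On CTRL 1 WT mouse (11.72) lay among the mutants and the probe was well above background in 6 of the 8 WT mice. On HFD all WT mice lay below all Pparα hep-/- and all Pparα -/- mice. In Pparα hep-/- mice Sult1e1 was 6.93-fold higher than in WT mice on CTRL (log2 fold change 2.79, SE 0.69, adjusted p = 0.00204) and 18.3-fold higher on HFD (log2 fold change 4.19, SE 0.62, adjusted p = 2.03e-06). In Pparα -/- mice it was 39.7-fold higher on CTRL (log2 fold change 5.31, SE 0.72, adjusted p = 7.43e-08) and 65.1-fold higher on HFD (log2 fold change 6.03, SE 0.62, adjusted p = 5.23e-11).

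Between the mutants, Sult1e1 was 5.73-fold higher in Pparα -/- than in Pparα hep-/- mice on CTRL (log2 fold change 2.52, SE 0.64, adjusted p = 0.00261), and the groups just did not overlap. On HFD it was 3.56-fold higher (log2 fold change 1.83, SE 0.58, adjusted p = 0.0131), with 6 of 8 Pparα -/- mice above the Pparα hep-/- mean. That HFD difference was uneven, at -0.48 within the first wash batch (adjusted p = 0.656) and 3.87 within the second (adjusted p = 0.000248). It was 1.50 without array weights (adjusted p = 0.105), and without Pparα -/- HFD mouse 7 it was 1.37 (adjusted p = 0.0899). Sult1e1 did not pass the test for HFD within any genotype, with values of -0.92, 0.48 and -0.20 (adjusted p = 0.419, 0.61 and 0.851) in WT, Pparα hep-/- and Pparα -/- mice. Sult1e1 and the mu-class gene Gstm2 were the only 2 of the 43 genes that were higher in both mutants on both diets, a pattern that 2.17% of all probes showed. No gene was lower in both mutants on both diets, a pattern of 2.62% of all probes.

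Sult2a7, a hydroxysteroid sulfotransferase gene and 1 of the 2 genes of the Sult2a cluster that could be tested, was higher in the mutants on CTRL and was lowered by HFD there. On CTRL its signal ran from 5.68 to 9.76 (median 8.40) in WT, from 6.25 to 11.38 (median 10.75) in Pparα hep-/- and from 11.39 to 14.33 (median 12.39) in Pparα -/- mice. Every Pparα -/- mouse was above every mouse of the other 2 CTRL groups. Pparα hep-/- mice exceeded WT mice 5.25-fold (log2 fold change 2.39, SE 0.42, adjusted p = 4e-05), and Pparα -/- mice did so 19.5-fold (log2 fold change 4.29, SE 0.44, adjusted p = 1.04e-10). Sult2a7 was 3.71-fold higher in Pparα -/- than in Pparα hep-/- mice (log2 fold change 1.89, SE 0.40, adjusted p = 0.000267). On HFD the ranges were 8.58 to 9.97 (median 9.10), 9.12 to 10.21 (median 9.67) and 9.27 to 12.54 (median 9.85) in the same order, and the groups overlapped.

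HFD lowered Sult2a7 6.48-fold in Pparα -/- mice (log2 fold change -2.70, SE 0.39, adjusted p = 3.52e-06). The change in Pparα hep-/- mice was -1.19 (SE 0.37, adjusted p = 0.0193), and it was -0.59 without array weights (adjusted p = 0.663). In WT mice the value was 0.67 (adjusted p = 0.322). The response to HFD differed between Pparα -/- and WT mice by -3.36 (SE 0.59, adjusted p = 0.000152). The remaining difference between Pparα -/- and WT mice on HFD was 0.92 (SE 0.38, adjusted p = 0.0443), and 10 of the 16 omissions of 1 mouse ended this call (adjusted p up to 0.124, without Pparα -/- HFD mouse 1).

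**Figure D3:**
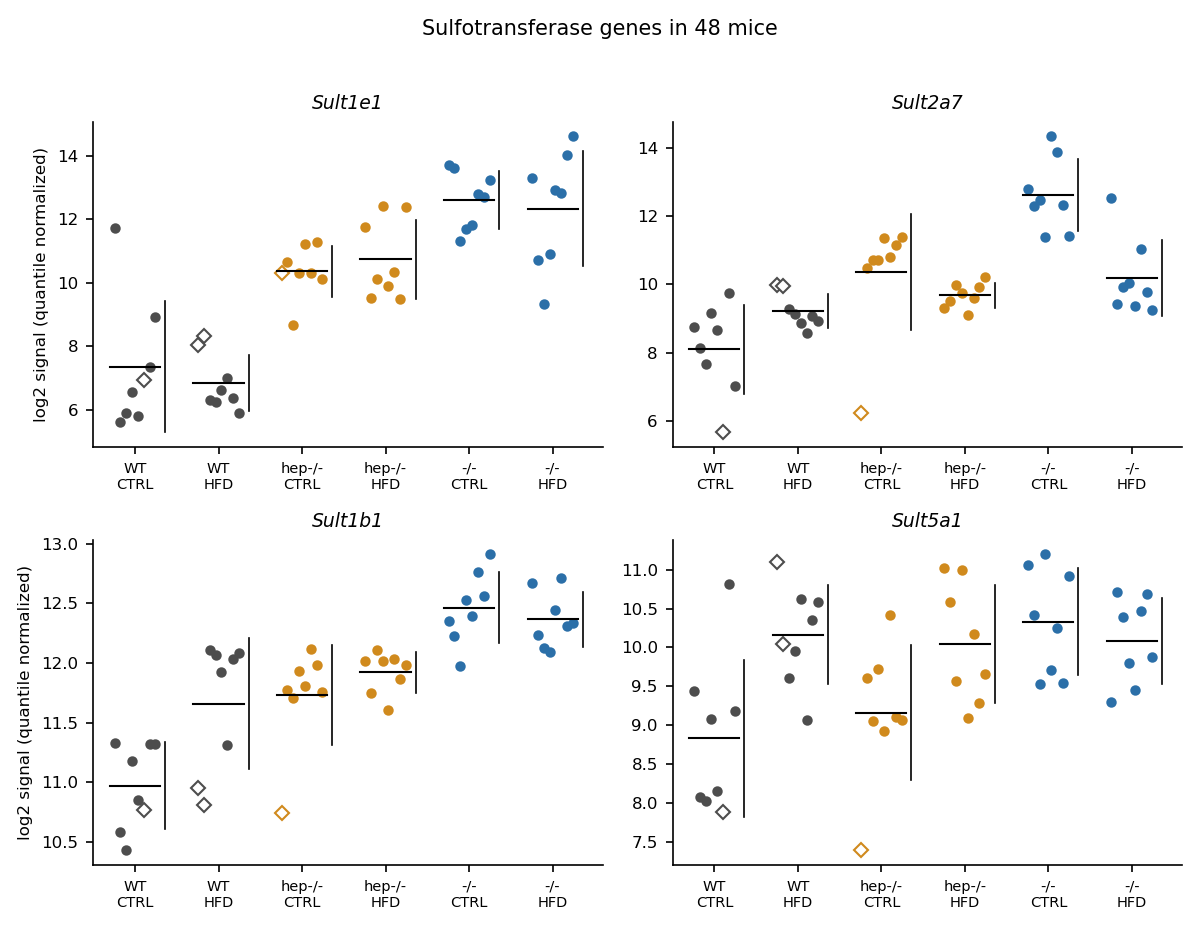
Log2 signal of sulfotransferase genes in each of the 48 mice (points), by genotype (WT, hep-/- for Pparα hep-/-, -/- for Pparα -/-) and diet, with the mean as a horizontal line and the SD as a vertical line; open diamonds are the 4 arrays that stand apart. Sult1e1 steps up from WT to Pparα hep-/- to Pparα -/- on both diets, and Sult2a7 does so on CTRL.

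Sult1b1, which sulfates thyroid hormones and small phenols, and Sult5a1 rose on HFD in WT mice and were already high in Pparα -/- mice on CTRL. Sult1b1 on CTRL ran from 10.43 to 11.33 (median 11.01) in WT, from 10.75 to 12.12 (median 11.79) in Pparα hep-/- and from 11.98 to 12.91 (median 12.46) in Pparα -/- mice. No WT mouse overlapped a Pparα -/- mouse there (2.91-fold higher, log2 fold change 1.54, SE 0.15, adjusted p = 2e-11). On HFD it ran from 10.81 to 12.11 (median 11.98), from 11.60 to 12.11 (median 12.00) and from 12.09 to 12.71 (median 12.32) in the same order. HFD raised Sult1b1 1.87-fold in WT mice (log2 fold change 0.90, SE 0.15, adjusted p = 2.75e-05). On CTRL it was also higher than WT in Pparα hep-/- mice (0.85, SE 0.14, adjusted p = 1.89e-05). The response to HFD differed from that of WT mice by -0.80 (SE 0.20, adjusted p = 0.0067) in Pparα hep-/- mice and by -1.09 (SE 0.20, adjusted p = 0.000261) in Pparα -/- mice. The first of these 2 differences was -0.45 without array weights (adjusted p = 0.424). Sult5a1 on CTRL ran from 7.88 to 10.82 (median 8.61) in WT and from 9.53 to 11.20 (median 10.34) in Pparα -/- mice, and from 9.07 to 11.10 (median 10.20) in WT mice on HFD. It was 2.60-fold higher on HFD in WT mice (log2 fold change 1.38, SE 0.36, adjusted p = 0.00511) and 2.70-fold higher in Pparα -/- mice than in WT on CTRL (log2 fold change 1.43, SE 0.37, adjusted p = 0.00179). Within the second wash batch these values were 0.89 (adjusted p = 0.37) and 1.03 (adjusted p = 0.19). The response of Sult5a1 to HFD differed between Pparα -/- and WT mice by -1.58 (SE 0.48, adjusted p = 0.0226), and by -1.58 without array weights (adjusted p = 0.0574). The dimmer Sult5a1 probe gave smaller values, 0.76 (adjusted p = 0.0406) for HFD in WT mice, 0.73 (adjusted p = 0.0343) for Pparα -/- against WT mice on CTRL and -0.86 (adjusted p = 0.102) for the difference in response.

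The genes for the phenol sulfotransferase Sult1a1 and for Sult1c2 separated the mutants from each other. Sult1a1 was lower on HFD in Pparα hep-/- mice (-0.45, SE 0.11, adjusted p = 0.00233) and higher on HFD in Pparα -/- mice (0.34, SE 0.11, adjusted p = 0.0199). The 2 responses differed by 0.79 (SE 0.15, adjusted p = 0.00182), which became 0.69 without array weights (adjusted p = 0.0585). The Sult1a1 signal ran from 15.20 to 16.25 (median 15.96) and from 15.06 to 15.74 (median 15.56) in Pparα hep-/- mice on CTRL and HFD, and from 15.05 to 15.82 (median 15.72) and from 15.57 to 16.40 (median 15.83) in Pparα -/- mice. The dimmer Sult1a1 probe gave 0.29 (adjusted p = 0.0527) for HFD in Pparα -/- mice. Sult1c2 ran from 10.86 to 11.43 (median 11.17) in Pparα hep-/- mice on HFD and from 10.13 to 10.76 (median 10.45) in Pparα -/- mice, with no overlap and a difference of -0.77 (SE 0.16, adjusted p = 0.00024). On CTRL it was also lower in Pparα -/- than in Pparα hep-/- mice (-0.76, SE 0.18, adjusted p = 0.00133). Pparα hep-/- mice exceeded WT mice on CTRL (0.93, SE 0.19, adjusted p = 0.000337) and on HFD (0.87, SE 0.18, adjusted p = 0.000216). Without array weights the CTRL difference between the mutants was -0.59 (adjusted p = 0.0707).

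Sult1d1, named after its values were seen, was higher than WT on HFD in both mutants, with 0.63 (SE 0.17, adjusted p = 0.00416) in Pparα hep-/- and 0.49 (SE 0.17, adjusted p = 0.0142) in Pparα -/- mice. Its signal on HFD ran from 11.61 to 12.47 (median 11.95) in WT, from 11.91 to 12.99 (median 12.47) in Pparα hep-/- and from 11.93 to 12.60 (median 12.49) in Pparα -/- mice, so the groups overlapped, and its dimmer probe gave 0.69 (adjusted p = 0.00293) and 0.55 (adjusted p = 0.00962). Sult1c1 was lower in Pparα hep-/- than in WT mice on HFD (-0.38, SE 0.10, adjusted p = 0.0051), and -0.30 without array weights (adjusted p = 0.0989). Sult2a8, a bright probe with 2 mice far below the rest (11.64 and 11.84 against medians of 15.7 to 16.1), was lower in Pparα hep-/- than in WT mice on HFD (-0.76, SE 0.24, adjusted p = 0.0172). That call was lost without array weights (-0.43, adjusted p = 0.593) and without Pparα hep-/- HFD mouse 5 (-0.55, adjusted p = 0.0863). Sult4a1 was called once, lower on HFD in Pparα hep-/- mice (-0.28, SE 0.09, adjusted p = 0.0256). Sult2b1, the cholesterol sulfotransferase gene, was well above background in 5 of 8 WT mice on CTRL and in none of the Pparα -/- mice on CTRL, where it was at least 1.46-fold lower with all 8 WT mice (adjusted p = 0.00851). That call rested on WT CTRL mouse 4 (8.60), without which the fitted log2 difference was -0.39 in place of -0.89 (adjusted p = 0.0807). On HFD 1 of 8 WT mice was well above background, and the fitted change on HFD in WT mice was -0.88 (adjusted p = 0.0154), or -0.39 without that CTRL mouse (adjusted p = 0.114). Over the class, 3, 4 and 2 of the 11 tested Sult genes changed on HFD in WT, Pparα hep-/- and Pparα -/- mice (27.3%, 36.4% and 18.2%, against 18.7%, 20.2% and 24.8% of all probes). Against WT on CTRL, 5 differed in each mutant (45.5%, against 24.7% of all probes for Pparα hep-/- and 34.2% for Pparα -/-).

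Among the glutathione S-transferases, the alpha-class gene Gsta2, a classical Nrf2 and xenobiotic target, was raised by HFD in both mutants. Its signal on CTRL ran from 10.101 to 15.55 (median 11.22) in WT, from 11.59 to 15.03 (median 12.10) in Pparα hep-/- and from 9.74 to 12.33 (median 11.24) in Pparα -/- mice. The HFD ranges went from 7.74 to 13.24 (median 11.83), from 13.04 to 14.24 (median 14.07) and from 11.49 to 13.09 (median 12.40) in the same order. WT mice had the widest range on each diet, and their change on HFD was 0.29 (SE 0.46, adjusted p = 0.732). The test of the difference in response against WT called Gsta2 for neither mutant, so a response limited to the mutants was not shown. HFD raised Gsta2 3.53-fold in Pparα hep-/- (log2 fold change 1.82, SE 0.39, adjusted p = 0.000819) and 2.41-fold in Pparα -/- mice (log2 fold change 1.27, SE 0.41, adjusted p = 0.0181). On HFD, Pparα hep-/- mice exceeded WT mice 5.21-fold (log2 fold change 2.38, SE 0.40, adjusted p = 1.88e-05), and Gsta2 was 2.95-fold lower in Pparα -/- than in Pparα hep-/- mice (log2 fold change -1.56, SE 0.38, adjusted p = 0.00107). Of these 4 calls, the 2 for HFD and the one between the mutants were lost without array weights (1.38, 1.19 and -1.53, adjusted p = 0.25, 0.199 and 0.0813). Gsta4, whose enzyme clears the lipid peroxidation product 4-hydroxynonenal, was lower in Pparα -/- than in Pparα hep-/- mice on CTRL (-0.66, SE 0.16, adjusted p = 0.00116) and on HFD (-0.83, SE 0.14, adjusted p = 7.04e-06). On HFD its signal ran from 10.37 to 11.21 (median 10.84) in Pparα hep-/- and from 9.83 to 10.35 (median 10.0004) in Pparα -/- mice without overlap. Gsta3 rose on HFD by 0.29 (SE 0.09, adjusted p = 0.024) in WT and 0.40 (SE 0.08, adjusted p = 0.000534) in Pparα -/- mice. Of its 2 dimmer probes, 1 gave 0.31 (adjusted p = 0.0185) and 0.41 (adjusted p = 0.000438) there and the other 0.45 (adjusted p = 0.112) and -0.17 (adjusted p = 0.507).

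Of the 7 tested mu-class genes, 3 were higher than WT on CTRL in Pparα hep-/- mice (against 11.3% of all probes higher) and 3 in Pparα -/- mice (15.6%). On HFD these counts were 4 (13.3%) and 6 (21.8%), and at the probes tested none was lower on either diet. Gstm1, Gstm3 and Gstm4 were higher than in WT in both mutants on HFD and passed the test in neither on CTRL. Gstm2, Gstm5 and Gstm6 were higher in both mutants on CTRL. On HFD Gstm5 and Gstm6 were higher than WT in Pparα -/- mice too, with 0.35 (SE 0.09, adjusted p = 0.00141) and 0.45 (SE 0.10, adjusted p = 0.000362). The brighter Gstm7 probe did not pass the test against WT in either mutant, and the dimmer one was lower in Pparα hep-/- mice on HFD, with -0.29 (adjusted p = 0.0268). Gstm1, the main liver mu-class enzyme, ran on HFD from 13.82 to 16.00 (median 15.07) in WT, from 15.75 to 16.50 (median 16.17) in Pparα hep-/- and from 15.53 to 16.24 (median 15.97) in Pparα -/- mice. On CTRL the ranges were 14.86 to 16.80 (median 15.50), 15.06 to 16.61 (median 15.79) and 15.14 to 15.95 (median 15.22). On HFD, Gstm1 exceeded its WT level 2.11-fold in Pparα hep-/- (log2 fold change 1.08, SE 0.16, adjusted p = 1.92e-06) and 1.74-fold in Pparα -/- mice (log2 fold change 0.80, SE 0.16, adjusted p = 5.16e-05). The same differences were 1.00 (SE 0.16, adjusted p = 7.05e-06) and 0.82 (SE 0.16, adjusted p = 3.51e-05) for Gstm3, and 1.05 (SE 0.16, adjusted p = 2.38e-06) and 0.76 (SE 0.16, adjusted p = 8.79e-05) for Gstm4. The probes of these 3 genes, shown above, shared no run of more than 6 bases, but whether each detects only its own transcript was not tested.

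HFD raised the 3 genes in both mutants by smaller amounts. In Pparα hep-/- mice the changes were 0.55 (SE 0.15, adjusted p = 0.00898) for Gstm1, 0.53 (SE 0.15, adjusted p = 0.0115) for Gstm3 and 0.44 (SE 0.15, adjusted p = 0.033) for Gstm4. They were 0.52 (SE 0.16, adjusted p = 0.0148), 0.65 (SE 0.16, adjusted p = 0.00248) and 0.48 (SE 0.16, adjusted p = 0.0216) in Pparα -/- mice. In WT mice the values were -0.32, -0.28 and -0.25 (adjusted p = 0.24, 0.317 and 0.38). The response exceeded that of WT mice by 0.87 (SE 0.24, adjusted p = 0.0153) for Gstm1 and 0.81 (SE 0.24, adjusted p = 0.0236) for Gstm3 in Pparα hep-/- mice. In Pparα -/- mice it did so by 0.84 (SE 0.24, adjusted p = 0.0163) for Gstm1, 0.93 (SE 0.24, adjusted p = 0.00761) for Gstm3 and 0.73 (SE 0.24, adjusted p = 0.0333) for Gstm4. These responses depended on the weights: without them HFD gave 0.39 and 0.37 for Gstm1 and Gstm3 in Pparα hep-/- mice (adjusted p = 0.399 and 0.464). Without weights it gave 0.48, 0.59 and 0.45 for the 3 genes in Pparα -/- mice (adjusted p = 0.14, 0.0807 and 0.15). The difference in the Gstm4 response was 0.55 with the 4 arrays that stand apart left out (adjusted p = 0.0735), and 0.68 without WT CTRL mouse 3 (adjusted p = 0.067).

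Gstm2 was higher in the mutants regardless of diet. Its signal ran on CTRL from 12.23 to 14.16 (median 12.62) in WT, from 13.41 to 14.21 (median 13.76) in Pparα hep-/- and from 13.36 to 14.77 (median 13.96) in Pparα -/- mice. The ranges on HFD went from 11.73 to 13.18 (median 12.17), from 13.17 to 14.05 (median 13.40) and from 13.56 to 14.55 (median 13.72) in the same order. The 1 WT mouse among the mutants on CTRL was mouse 6, which has a low weight, and on HFD no WT mouse reached a Pparα -/- mouse. Against WT, Gstm2 was 2.08-fold higher in Pparα hep-/- (log2 fold change 1.05, SE 0.19, adjusted p = 6.15e-05) and 2.47-fold higher in Pparα -/- mice (log2 fold change 1.30, SE 0.20, adjusted p = 1.14e-06) on CTRL. On HFD it was 2.54-fold (log2 fold change 1.35, SE 0.17, adjusted p = 1.35e-07) and 3.15-fold higher (log2 fold change 1.65, SE 0.17, adjusted p = 9.46e-11). These 4 calls held in every alternative run, within each wash batch and without weights included. On CTRL the Pparα hep-/- and Pparα -/- mice exceeded WT by 0.54 (SE 0.10, adjusted p = 6.37e-05) and 0.75 (SE 0.10, adjusted p = 1.38e-07) for Gstm5, and for Gstm6 by 0.46 (SE 0.12, adjusted p = 0.0024) and 0.41 (SE 0.12, adjusted p = 0.00716). Gstm6 and Gstm7 fell on HFD in Pparα hep-/- mice, with changes of -0.53 (SE 0.10, adjusted p = 0.000194) and -0.60 (SE 0.11, adjusted p = 7.06e-05). The dimmer Gstm6 probe gave 0.04 (adjusted p = 0.868) there, so that fall rests on 1 probe, and the dimmer Gstm7 probe gave -0.52 (adjusted p = 0.00016). The dimmer Gstm6 probe was also higher than WT on HFD in Pparα hep-/- mice, with 0.76 (adjusted p = 6.7e-05), where the brighter one gave 0.18 (adjusted p = 0.196).

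**Figure D4:**
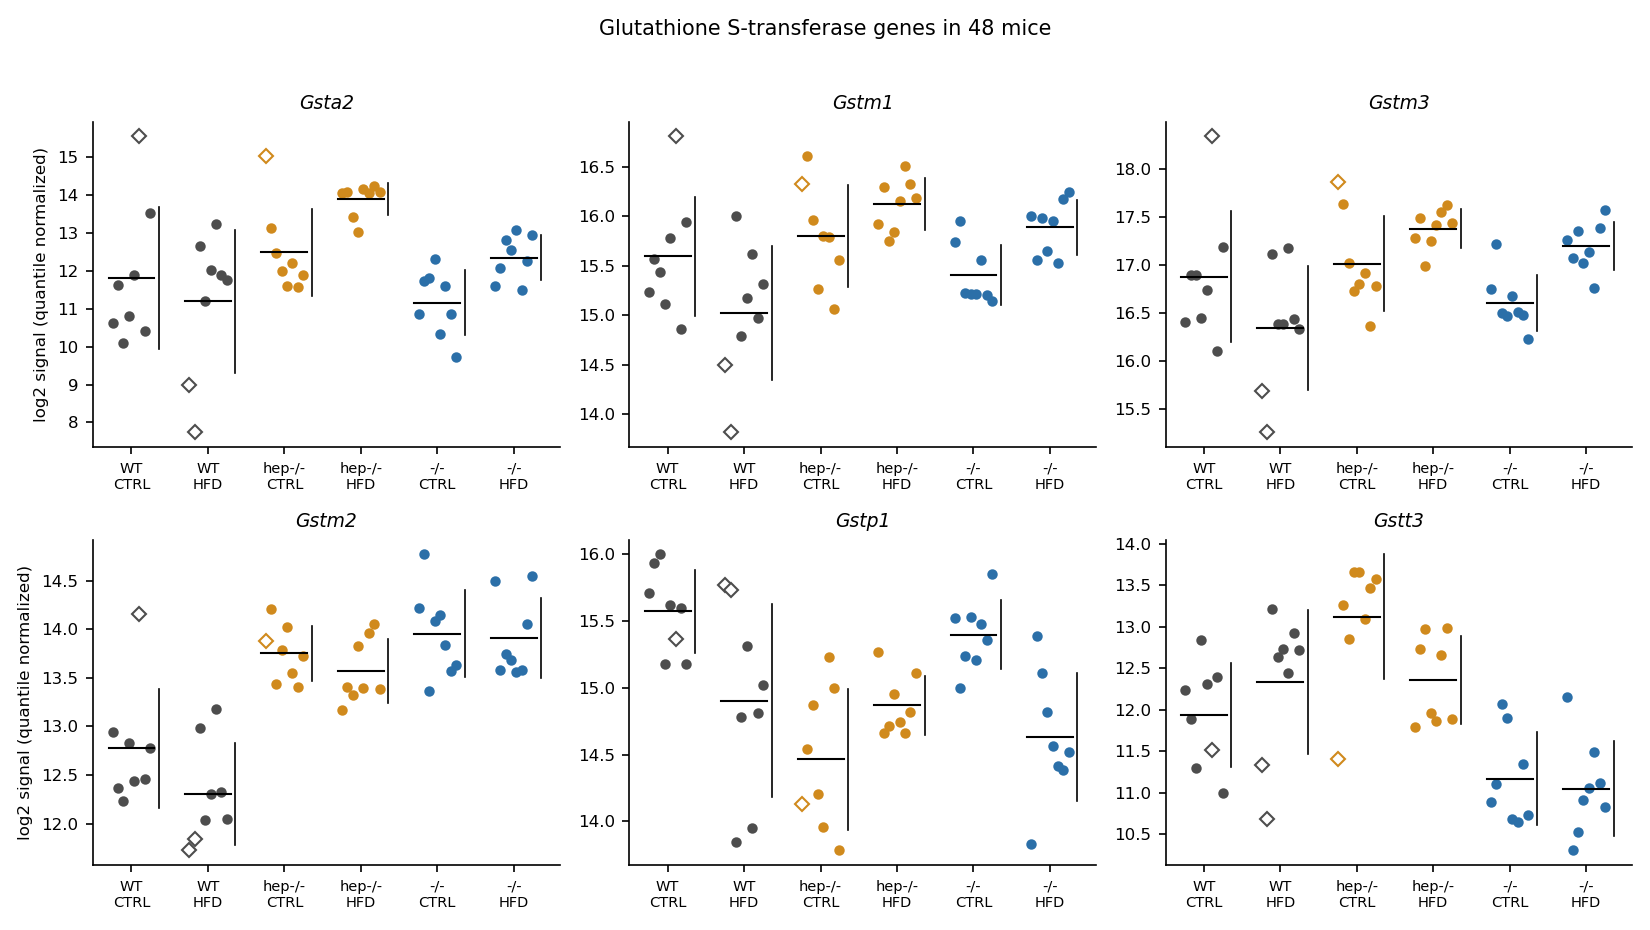
Log2 signal of glutathione S-transferase genes in each of the 48 mice (points), by genotype and diet as in the sulfotransferase plot, with the mean (horizontal line), the SD (vertical line) and open diamonds for the 4 arrays that stand apart. Gstm2 is high in both mutants on both diets, and Gstt3 is highest in Pparα hep-/- mice on CTRL and lowest in Pparα -/- mice.

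Gstt3, a theta-class gene, differed from WT in opposite directions in the 2 mutants on CTRL. On CTRL its signal ran from 10.99 to 12.85 (median 12.06) in WT, from 11.41 to 13.66 (median 13.36) in Pparα hep-/- and from 10.65 to 12.08 (median 10.996) in Pparα -/- mice. On HFD it ran from 10.68 to 13.21 (median 12.68), from 11.79 to 12.99 (median 12.31) and from 10.31 to 12.15 (median 10.99) in the same order. It was 2.40-fold higher than WT in Pparα hep-/- mice on CTRL (log2 fold change 1.27, SE 0.28, adjusted p = 0.000679) and 1.96-fold lower than WT in Pparα -/- mice (log2 fold change -0.97, SE 0.29, adjusted p = 0.00792). The second value was -0.76 without array weights (adjusted p = 0.0657). Between the mutants it was 4.72-fold lower in Pparα -/- mice on CTRL (log2 fold change -2.24, SE 0.26, adjusted p = 3.57e-09) and 2.61-fold lower on HFD (log2 fold change -1.38, SE 0.24, adjusted p = 8.56e-06). On HFD it was 3.06-fold lower in Pparα -/- than in WT mice (log2 fold change -1.62, SE 0.25, adjusted p = 9.12e-07). HFD lowered Gstt3 in Pparα hep-/- mice (-0.93, SE 0.24, adjusted p = 0.00593), which was -0.73 without array weights (adjusted p = 0.24). The response differed from that of WT mice by -1.50 (SE 0.38, adjusted p = 0.00906), and by -1.13 without weights (adjusted p = 0.246). Of the other theta genes, Gstt1 was lower in Pparα -/- than in Pparα hep-/- mice on CTRL (-0.49, SE 0.12, adjusted p = 0.00219) and than in WT mice on HFD (-0.52, SE 0.12, adjusted p = 0.000345). Gstt2 rose on HFD in WT mice (0.66, SE 0.20, adjusted p = 0.0162), and its value was 0.26 without array weights (adjusted p = 0.539). The dimmer Gstt2 probe gave 0.18 (adjusted p = 0.664) there. Between Pparα hep-/- and WT mice on CTRL it gave -0.20 (adjusted p = 0.557), where the brighter probe gave 0.86 (SE 0.19, adjusted p = 0.000784).

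The pi-class gene Gstp1, the form known to be abundant in male mouse liver, was lower in Pparα hep-/- mice on CTRL and was lowered by HFD in the other genotypes. Its signal ran on CTRL from 15.18 to 16.00 (median 15.61) in WT, from 13.78 to 15.23 (median 14.38) in Pparα hep-/- and from 14.997 to 15.85 (median 15.42) in Pparα -/- mice. HFD ranges were from 13.85 to 15.76 (median 14.91), from 14.66 to 15.27 (median 14.78) and from 13.83 to 15.39 (median 14.54) in the same order. In Pparα hep-/- mice on CTRL it was 2.10-fold lower than in WT mice (log2 fold change -1.07, SE 0.22, adjusted p = 0.000297). Pparα -/- mice were 1.85-fold higher than Pparα hep-/- mice (log2 fold change 0.89, SE 0.21, adjusted p = 0.000972). HFD lowered Gstp1 in WT (-0.73, SE 0.23, adjusted p = 0.019) and Pparα -/- mice (-0.79, SE 0.20, adjusted p = 0.00355), and the value in Pparα hep-/- mice was 0.31 (adjusted p = 0.269). The response in Pparα hep-/- mice differed from that in WT mice by 1.04 (SE 0.30, adjusted p = 0.0212) and that in Pparα -/- mice differed from Pparα hep-/- by -1.09 (SE 0.28, adjusted p = 0.0191). Without array weights the adjusted p of these 2 was 0.1 and 0.0961. The HFD call in WT mice ended with the slide as block (-0.64, adjusted p = 0.0557) and without WT HFD mouse 3 (-0.57, adjusted p = 0.0739). Gstp2 was lower in Pparα hep-/- than in WT mice on CTRL as well (-0.44, SE 0.11, adjusted p = 0.00323).

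Gstk1, the mitochondrial and peroxisomal kappa-class gene, rose on HFD in WT mice by 0.54 (SE 0.07, adjusted p = 1.79e-06) and in Pparα -/- mice by 0.22 (SE 0.07, adjusted p = 0.0111). On HFD it was lower than WT in both mutants, with -0.27 (SE 0.07, adjusted p = 0.00149) for Pparα hep-/- and -0.24 (SE 0.06, adjusted p = 0.00191) for Pparα -/- mice. The first of these differences was -0.15 without weights (adjusted p = 0.236). Gstz1, which takes part in tyrosine breakdown, exceeded WT by 0.44 (SE 0.06, adjusted p = 2.65e-07) in Pparα -/- mice on CTRL, and its ranges of 15.54 to 15.93 (median 15.72) and 16.06 to 16.26 (median 16.23) did not overlap. Its second, dimmer probe gave -0.07 there (adjusted p = 0.428). It was lower where the brighter probe was higher between the mutants on CTRL (-0.25 against 0.23) and on HFD (-0.36 against 0.24) and between Pparα -/- and WT mice on HFD (-0.45 against 0.19). The direction of Gstz1 is therefore uncertain in these comparisons. Gsto1, the omega-class gene, did not pass the test with its brighter probe, with medians between 14.4 and 14.6. Its dimmer probe did so for HFD in WT mice, with 0.28 (adjusted p = 0.0415), and in Pparα -/- mice, with 0.23 (adjusted p = 0.049). Over the class, 7, 8 and 8 of the 18 tested Gst genes changed on HFD in WT, Pparα hep-/- and Pparα -/- mice (38.9%, 44.4% and 44.4%, against 18.7%, 20.2% and 24.8% of all probes). Of the 18, 10 differed from WT on CTRL in Pparα hep-/- mice (55.6%, against 24.7%) and 5 in Pparα -/- mice (27.8%, against 34.2%). On HFD 7 (38.9%, against 26.7%) and 10 (55.6%, against 45.7%) did so.

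Among the glucuronosyltransferases, Ugt2b1, an enzyme of steroid and drug glucuronidation, was the only 1 of the 43 genes that was lower on HFD in all 3 genotypes, a pattern seen for 1.02% of all probes. No gene was higher in all 3, a pattern seen for 1.14% of all probes. The Ugt2b1 signal on CTRL and HFD ran from 11.07 to 12.92 (median 12.58) and from 10.97 to 12.54 (median 11.88) in WT mice, from 11.06 to 13.00 (median 12.65) and from 11.33 to 12.44 (median 11.91) in Pparα hep-/- mice, and from 12.50 to 13.31 (median 12.82) and from 11.61 to 12.21 (median 11.82) in Pparα -/- mice. The 2 diets did not overlap in Pparα -/- mice, where Ugt2b1 was 2.06-fold lower (log2 fold change -1.04, SE 0.17, adjusted p = 1.61e-05). The changes in WT and Pparα hep-/- mice were -0.61 (SE 0.19, adjusted p = 0.0171) and -0.87 (SE 0.16, adjusted p = 0.000118). The first was -0.55 without WT CTRL mouse 1 (adjusted p = 0.0518), and the second was -0.55 without array weights (adjusted p = 0.198). The lowest CTRL values (11.07 and 11.06) belonged to WT mouse 6 and Pparα hep-/- mouse 1, and with both left out the 3 calls held.

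**Figure D5:**
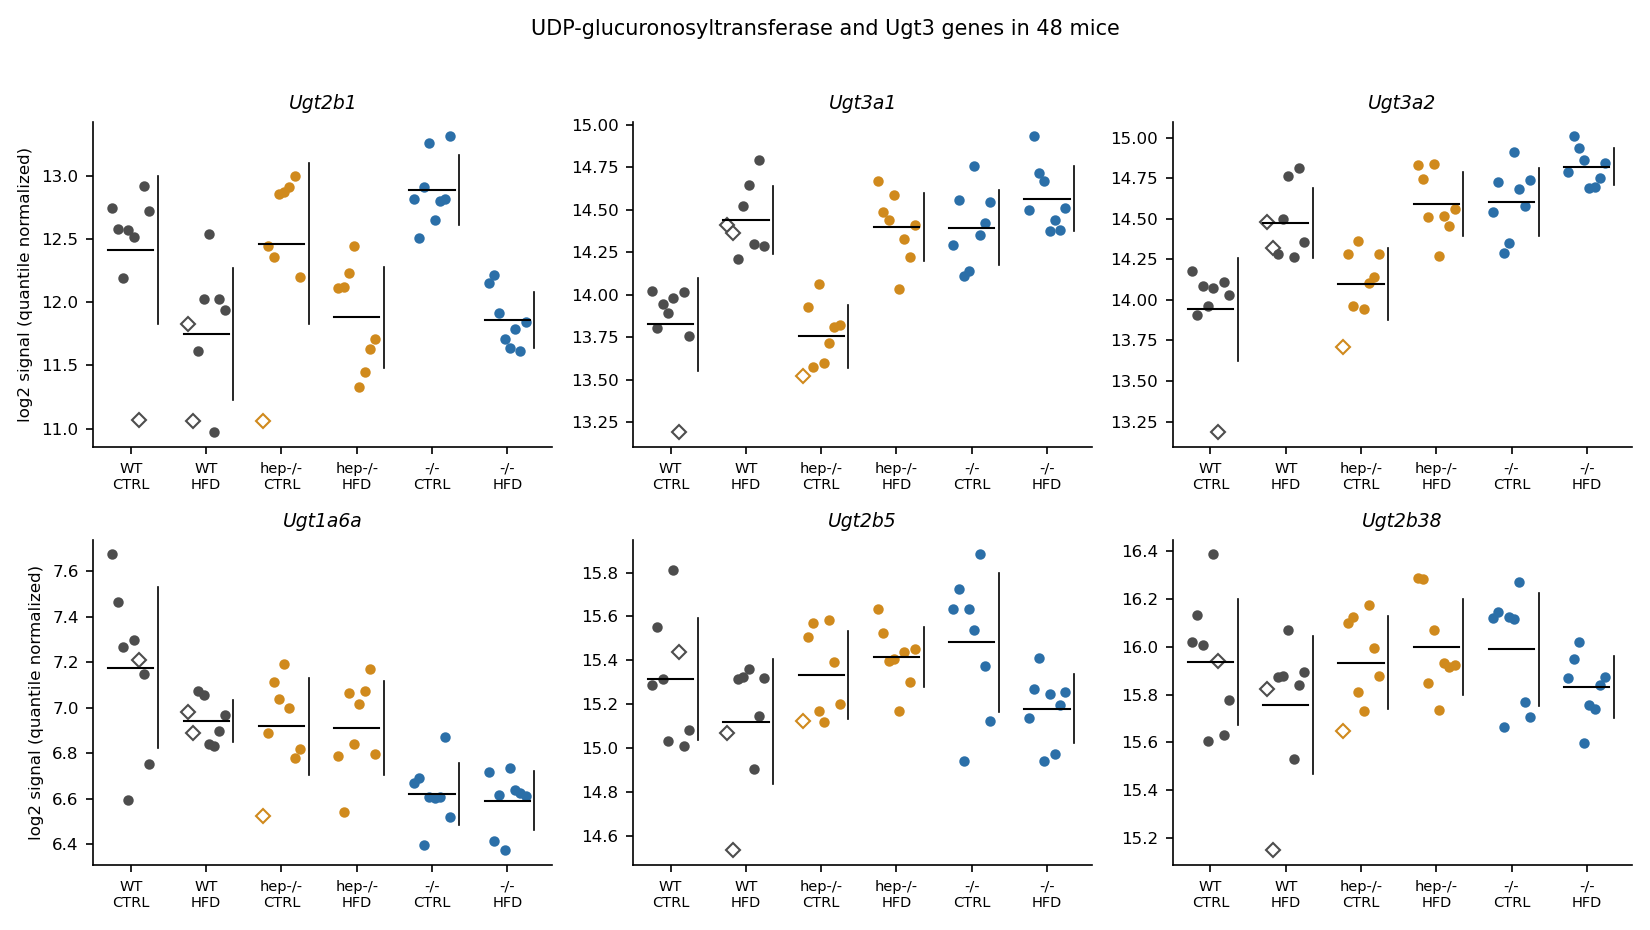
Log2 signal of Ugt genes in each of the 48 mice (points), by genotype and diet as in the sulfotransferase plot, with the mean (horizontal line), the SD (vertical line) and open diamonds for the 4 arrays that stand apart. Ugt2b1 is lower on HFD in every genotype, Ugt3a1 and Ugt3a2 are lower in WT and Pparα hep-/- mice on CTRL than in the other groups, and Ugt2b38 shows no call.

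Ugt3a1 and Ugt3a2, whose enzymes use sugars other than glucuronic acid, rose on HFD in WT and Pparα hep-/- mice and were already higher in Pparα -/- mice on CTRL. Ugt3a1 ran on CTRL from 13.19 to 14.02 (median 13.92) in WT, from 13.52 to 14.06 (median 13.76) in Pparα hep-/- and from 14.11 to 14.76 (median 14.39) in Pparα -/- mice. On HFD it ran from 14.21 to 14.79 (median 14.39), from 14.04 to 14.67 (median 14.43) and from 14.38 to 14.93 (median 14.51) in the same order. The 2 diets did not overlap in WT mice. HFD raised it by 0.59 (SE 0.10, adjusted p = 4.66e-05) in WT and 0.54 (SE 0.09, adjusted p = 1.89e-05) in Pparα hep-/- mice, and the value in Pparα -/- mice was 0.15 (adjusted p = 0.239). On CTRL Pparα -/- mice exceeded WT mice (0.51, SE 0.10, adjusted p = 9.29e-05) and Pparα hep-/- mice (0.59, SE 0.09, adjusted p = 2.09e-06), without overlap. For Ugt3a2 the changes on HFD were 0.51 (SE 0.10, adjusted p = 0.000228) in WT and 0.38 (SE 0.08, adjusted p = 0.00106) in Pparα hep-/- mice. The difference between Pparα -/- and WT mice on CTRL was 0.61 (SE 0.10, adjusted p = 4.24e-06). The response of Ugt3a1 to HFD was smaller in Pparα -/- than in WT mice (-0.45, SE 0.13, adjusted p = 0.0209), and -0.44 without weights (adjusted p = 0.072). The dimmer Ugt3a2 probe went the opposite way between Pparα -/- and WT mice on HFD (-0.23 against 0.29).

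In Pparα -/- mice on CTRL, Ugt1a10 was 2.28-fold lower than in WT mice (log2 fold change -1.19, SE 0.30, adjusted p = 0.00177), with signals from 6.27 to 7.81 (median 6.77) against 7.69 to 8.97 (median 8.19). Ugt1a6a, a phenol glucuronosyltransferase gene, was lower in Pparα -/- than in WT mice on CTRL (-0.54, SE 0.11, adjusted p = 8.15e-05) and on HFD (-0.35, SE 0.09, adjusted p = 0.0016), the latter without overlap. The bright Ugt1a6b probe lists several Ugt1a transcripts, which share their 3′ exons, so its small rise on HFD in WT mice (0.35, SE 0.08, adjusted p = 0.00251) may belong to any of them. The Ugt1a6a probe (chr1:90116514-90116573) lies near it (chr1:90115493-90115552), and whether it too detects several transcripts was not tested. A dimmer Ugt1a6b probe placed farther off (chr1:90004249-90004308) gave 0.30 (adjusted p = 0.0192) on HFD in WT mice. It gave 0.40 (adjusted p = 0.000263) in Pparα hep-/- mice, where the bright probe gave 0.08 (adjusted p = 0.455). Ugt2a1 was lower on HFD in Pparα hep-/- mice (-0.34, SE 0.10, adjusted p = 0.0102) and in Pparα -/- mice (-0.51, SE 0.10, adjusted p = 0.000262). On HFD it was lower in both mutants than in WT mice, with differences of -0.30 (SE 0.10, adjusted p = 0.0189) and -0.42 (SE 0.10, adjusted p = 0.000416). The first of these was -0.26 without weights (adjusted p = 0.157). Ugt2b35 was lower on HFD in WT mice (-0.36, SE 0.11, adjusted p = 0.0152), and its response differed in Pparα hep-/- mice by 0.54 (SE 0.14, adjusted p = 0.0123). Its difference between Pparα hep-/- and WT mice on CTRL (-0.30, SE 0.10, adjusted p = 0.0281) was lost in 7 of 16 omissions of 1 mouse, with -0.24 (adjusted p = 0.102) without Pparα hep-/- CTRL mouse 4.

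Of the 7 tested Ugt2b genes, 4 share promoter sequence, and their windows of 30 bases, with the nuclear receptor half-site AGGTCA in capitals, show how alike they are (RefSeq, GRCm38.p6, minus strand, written in the direction of the gene).
Ugt2b5, chr5:87140345-87140374: ttcttggataaaAGGTCAagcagtgacaga
Ugt2b36, chr5:87092563-87092592: ttcttagataaaAGGTCAagcagtgacaga
Ugt2b37, chr5:87254810-87254839: ttcttggataaaAGGTCAagcagtgacaga
Ugt2b38, chr5:87424211-87424240: ttcttggataaaAGGTCAagcagtgacaaa
In Ugt2b35 the half-site lies 215 bases before the start in other flanks, and in Ugt2b1 and Ugt2b34 it was not found in the window. In the genes shown it lies 22, 25, 39 and 25 bases before the start of Ugt2b5, Ugt2b36, Ugt2b37 and Ugt2b38. In these 4 genes HFD in Pparα -/- mice gave -0.35 (SE 0.10, adjusted p = 0.00908) for Ugt2b5 and -0.41 (SE 0.10, adjusted p = 0.003) for Ugt2b37, whose probes share sequence. For Ugt2b36 and Ugt2b38 the values were -0.07 (adjusted p = 0.617) and -0.18 (adjusted p = 0.159). The Ugt2b38 probe and the brighter Gsto1 probe passed the test in none of the 12 comparisons, as did 22.8% of all probes. Ugt2a3 was called once, higher in Pparα -/- than in WT mice on HFD (0.20, SE 0.07, adjusted p = 0.0205), and Ugt2b34 once, lower on HFD in Pparα hep-/- mice (-0.21, SE 0.08, adjusted p = 0.0488). Over the class, 5, 5 and 4 of the 14 Ugt genes changed on HFD in WT, Pparα hep-/- and Pparα -/- mice (35.7%, 35.7% and 28.6%, against 18.7%, 20.2% and 24.8% of all probes). Against WT on CTRL, 2 differed in Pparα hep-/- mice (14.3%, against 24.7% of all probes) and 6 in Pparα -/- mice (42.9%, against 34.2%). On HFD 2 (14.3%, against 26.7%) and 5 (35.7%, against 45.7%) did so, both below the share of all probes.

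The promoters of the family were also read for 4 motifs, on both strands, in the window from 250 bases before to 50 bases after each start (RefSeq, GRCm38.p6; 45 of the 53 genes matched). The half-site AGGTCA was found in 10 genes (22.2%, against 18.1% of all 27025 genes). A pair of copies in direct repeat with 1 base between, the form that PPARα binds with its partner, was found in none (against 0.0481%). Only 13 of the 27025 genes held this exact match, so its absence among 45 cannot show whether the genes have PPARα sites. The core TGACNNNGC of the antioxidant response element was found in 3 genes (6.67% against 14%), and the Ahr element core GCGTG in 7 (15.6% against 35.2%). Among the sulfotransferases the half-site also lies in the window of Sult2a8, which was lower in Pparα hep-/- than in WT mice on HFD. It was not found in Sult1c2, Sult1d1 or Sult5a1, each higher than WT in at least 1 mutant, and Sult2a7 had no matched promoter. The windows of Sult1e1 and Sult1b1, chosen because these genes were higher in the mutants, and the 3 with the antioxidant core are given. The motif is in capitals, in the direction of the gene. In the first 2 the half-site lies on the opposite strand and reads TGACCT.
Sult1e1, chr5:87591707-87591736, minus strand: agtgagcaaactTGACCTtatgactaaaca
Sult1b1, chr5:87538301-87538330, minus strand: cagttgtcactcTGACCTattacaactgtt
Gsta3, chr1:21240454-21240483, plus strand: aactcaggcaTGACATTGCatttttcttct
Gstm5, chr3:107895802-107895831, plus strand: caccgcccacTGACCACGCggagggcgggt
Gstm7, chr3:107931724-107931753, minus strand: tctgaagaccTGACAAAGCgaagccaatcc
A match is a stretch of letters in this window and was not tested for binding. Gsta3 and Gstm5 rose on HFD in WT mice, by 0.29 (SE 0.09, adjusted p = 0.024) and 0.35 (SE 0.10, adjusted p = 0.0124), and Gstm7 was lower on HFD in both mutants, with -0.60 (SE 0.11, adjusted p = 7.06e-05) and -0.35 (SE 0.11, adjusted p = 0.0161). For the second of these the dimmer Gstm7 probe gave -0.24 (adjusted p = 0.0828).

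The response to HFD itself differed between Pparα hep-/- and WT mice for 14 of the 43 genes, 5 in the positive and 9 in the negative direction (32.6%, against 10.4% of all probes, 4.62% higher and 5.79% lower). Between Pparα -/- and WT mice it differed for 10, 3 and 7 (23.3%, against 14.3% of all probes, 6.93% higher and 7.42% lower), and between the mutants for 2, 1 and 1 (4.65%, against 3.42% of all probes, 2.12% higher and 1.3% lower). The positive differences were those of Gstm1, Gstm3, Gstp1, Gstp2 and Ugt2b35 in Pparα hep-/- mice and of Gstm1, Gstm3 and Gstm4 in Pparα -/- mice. The largest negative ones in Pparα -/- mice were those of Sult2a7, Sult5a1 and Sult1b1. Both differences share the WT mice, and both were counted with array weights. Without them 1 gene passed for Pparα hep-/- against WT mice (0.894% of all probes) and 5 for Pparα -/- against WT mice (5.22%). With the 75th-percentile scaling, 4 were positive and 14 negative in Pparα hep-/- mice (13.2% of all probes).

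The counts below, for lists of other genes and of cell markers, stand beside these shares of all probes. On HFD 18.7%, 20.2% and 24.8% changed in WT, Pparα hep-/- and Pparα -/- mice. Against WT, 24.7% and 34.2% differed in Pparα hep-/- and Pparα -/- mice on CTRL, and 26.7% and 45.7% on HFD. Between the mutants on CTRL it was 25.2%. Of 26 genes that supply the cofactors or perform other conjugation steps, 8 rose and none fell on HFD in WT mice (30.8%). In Pparα hep-/- mice 7 rose and 1 fell (30.8%), and 6 rose and 3 fell in Pparα -/- mice (34.6%), with medians of 0.20, 0.04 and 0.08. Against WT on HFD, Pparα hep-/- mice had 8 of them higher and 5 lower (50%), and Pparα -/- mice had 9 higher and 5 lower (53.8%). The microsomal transferase gene Mgst3, named after its values were seen, rose on HFD in all 3 genotypes, by 0.87 (SE 0.22, adjusted p = 0.00349) in WT, 0.83 (SE 0.19, adjusted p = 0.00129) in Pparα hep-/- and 1.09 (SE 0.19, adjusted p = 8.03e-05) in Pparα -/- mice.

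Of 11 tested Nrf2 target genes outside the family, 1 rose and 1 fell on HFD in WT mice (median -0.06), 5 rose and 1 fell in Pparα hep-/- mice (median 0.28) and 6 rose in Pparα -/- mice (median 0.36). Of these genes 2, Gclc and Gclm, also stand in the list of cofactor genes. Named after their values were seen, the quinone reductase gene Nqo1 rose by 0.76 (SE 0.26, adjusted p = 0.0308), 0.78 (SE 0.22, adjusted p = 0.00892) and 0.73 (SE 0.23, adjusted p = 0.0154) in WT, Pparα hep-/- and Pparα -/- mice. The sulfiredoxin gene Srxn1 rose by 0.78 (SE 0.19, adjusted p = 0.00338) and 0.65 (SE 0.20, adjusted p = 0.0145) in the 2 mutants. Of 12 xenobiotic receptors and their P450 targets, 2 rose on HFD in WT mice, 2 rose and 1 fell in Pparα hep-/- mice, and 1 fell in Pparα -/- mice. Those that rose in WT mice were the CAR gene Nr1i3, by 1.04 (SE 0.17, adjusted p = 1.85e-05), and Cyp2b10, a CAR target, by 4.18 (SE 0.67, adjusted p = 2.14e-05). Cyp2b10 also rose in Pparα hep-/- mice, by 4.91 (SE 0.57, adjusted p = 6.64e-08). In Pparα -/- mice its value was -0.45 (SE 0.60, adjusted p = 0.626). Of 12 PPARα target genes, 9 rose on HFD in WT mice, 5 rose and 1 fell in Pparα hep-/- mice and 5 rose in Pparα -/- mice (medians 0.73, 0.18 and 0.40). Against WT on HFD, Pparα hep-/- mice had 8 of them lower and 1 higher, and Pparα -/- mice had 10 lower.

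Several Sult and Cyp genes differ between the sexes in mouse liver, and 10 male-biased genes were read for that reason. On HFD 1 rose in WT mice, 5 fell in Pparα hep-/- mice and 9 fell in Pparα -/- mice, with medians of -0.42, -0.72 and -1.34. The steroid dehydrogenase gene Hsd3b5, named after its values were seen, changed by -3.60 (SE 0.80, adjusted p = 0.00127) without hepatocyte Pparα and by -3.64 (SE 0.84, adjusted p = 0.00136) without any Pparα. Against WT on CTRL the median of the 10 was -0.0027 in Pparα hep-/- mice, and in Pparα -/- mice 1 was higher and 2 lower. Against WT on HFD, 7 of the 10 were lower in Pparα hep-/- and 6 in Pparα -/- mice, and none was higher. Of 10 tested female-biased genes outside the family, 2, 3 and 3 rose on HFD in the 3 genotypes and none fell. Against WT on CTRL, 1 of the 10 was higher and 1 lower in Pparα hep-/- mice, and 1 higher and 3 lower in Pparα -/- mice. Against WT on HFD, Pparα hep-/- mice had 4 of these genes higher and 1 lower, and Pparα -/- mice 4 higher and 5 lower. The lists of cofactor, Nrf2, receptor and sex-biased genes are described by counts, and nothing was tested on a list as a whole.

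Of the markers of other liver cells, those of macrophages and stellate cells rose most often on HFD in the mutants. Of 8 macrophage markers, 4 rose in Pparα hep-/- and 6 in Pparα -/- mice, with a median change of 0.09 in WT mice. Against WT on HFD, 5 of the 8 were higher in Pparα hep-/- and 7 in Pparα -/- mice. Of 7 stellate cell markers, 3 rose in Pparα hep-/- and 7 in Pparα -/- mice, with a median change of 0.11 in WT mice, and 6 and 7 were higher than WT on HFD in the same order. The summed signal of the macrophage list lay between 13.56 and 15.99 over all mice, against 20.59 to 20.81 for the 8 hepatocyte genes, of which 1 rose and 2 fell on HFD in Pparα -/- mice. On CTRL 3 of these 8 hepatocyte genes were lower than WT in each mutant, and on HFD 1 was lower in Pparα hep-/- and 3 in Pparα -/- mice. Of 6 endothelial markers, 2 rose in each mutant, and against WT on HFD 4 were higher in each, with 1 lower in Pparα -/- mice. Of 6 cholangiocyte markers, 1 rose in Pparα hep-/- and none in Pparα -/- mice. Of 6 leukocyte markers, none changed in Pparα hep-/- mice, and 2 rose and 1 fell in Pparα -/- mice. Of 2 tested adipocyte markers, 1 (Cfd, named after its values were seen) rose on HFD in WT mice, on the log2 scale by 5.79 (SE 0.72, adjusted p = 3.81e-07). The log2 of the summed adipocyte signal ran from 8.83 to 15.52 in WT mice on HFD and reached at most 10.32 in the other groups, and the leukocyte sum reached 14.99 in WT mice on HFD and at most 13.16 elsewhere. The part of all these cells in the changes of Gsta2, Gstm1, Gstm3, Gstm4, Sult2a7 and Ugt2b1 on HFD, and in the differences from WT, was not tested. Of 4 intestine and 4 pancreas markers, 1 each was well above background on all 48 arrays and 1 each (Muc2 and Prss2) on none, and the summed signals lay between 13.37 and 15.95 and between 12.54 and 14.44. Of 3 kidney markers none was well above background on all arrays, and Kap was so on none. Both tested intestine markers were lower in Pparα -/- than in Pparα hep-/- mice on CTRL, and the 1 tested pancreas marker was lower on HFD in Pparα -/- mice.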

How the data were processed

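Liver RNA of 48 mice was measured on 48 one-colour Agilent arrays. The deposited scanner files hold spot intensity values made by the authors with Agilent Feature Extraction 10.10.1.1. From these, outlier spots were removed, the median signal was put on the log2 scale, spots of a probe were averaged, dim probes were filtered, and the arrays were quantile normalized. The deposited table of log2 values by the authors was used as an alternative; over 32815 shared probes it correlated with the normalized signal at 0.999 or more on each array. Differences were tested with limma 3.58.1 in R 4.3.3 (group means, wash batch, array weights, 12 comparisons), with Benjamini-Hochberg adjustment over all probes and calls at 0.05. The fit was tested on simulated data.

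Named with values are, per comparison, the 4 called genes with the largest difference in each direction, those changed alike in all HFD comparisons or in both mutants on both diets, those without overlap, and dimmer probes that oppose a call. Apart from the dimmer probes, this rule gave 95 differences in 31 genes. Among these, and not given above, was Sult5a1, higher in Pparα -/- than in Pparα hep-/- mice on CTRL (0.93). That call was lost in 6 of 16 omissions of 1 mouse, and the dimmer probe gave 0.51 (adjusted p = 0.126). Sult1a1, Sult1b1 and Gstm5 were likewise higher on HFD (0.46, 0.41 and 0.29). Other values in the text, and genes marked as named after their values were seen, fall outside that rule. The genes and lists were chosen with earlier results of these data known. Alternatives were no weights, slide as block, normexp background (offset 50), 75th-percentile scaling, deposited values, no filter on dim probes, a replicate block, each wash batch, each mouse left out, and, chosen after seeing the data, the arrays that stand apart left out. Mice are separate animals per the labels. The number of arrays limits the precision.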

Additional observations from a re-analysis of the deposited data

Results flagged for a closer look

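In 22 of 186 groups of 8 mice, over the 31 genes picked by the naming rule, the highest or lowest mouse lay farther from the rest than Dixon's criterion allows, and chance gives about 1 in 20. Pparα hep-/- CTRL mouse 1 accounted for 9 of these, as the lowest for Sult1b1 (10.75), Ugt2b1 (11.06), Gstt3 (11.41), Sult2a7 (6.25), Gstt1 (15.09), Gstk1 (13.82), Sult2a8 (11.84) and Sult1a1 (15.20) and the highest for Gsta2 (15.03). WT CTRL mouse 6 accounted for 6, as the lowest for Ugt2b1 (11.07), Ugt3a1 (13.19), Ugt3a2 (13.18), Gstm7 (9.51) and Sult2a8 (11.64) and the highest for Gstm2 (14.16). These are the 2 arrays of lowest weight, and with both left out all 95 differences picked by the naming rule kept their call.

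The other 7 were single values. WT CTRL mouse 4 was the highest for Sult2b1 (8.60) and Pparα -/- HFD mouse 4 the highest of its group for the same gene (6.25). Pparα hep-/- CTRL mouse 3 was the lowest for Sult1e1 (8.66), Pparα -/- CTRL mouse 8 the lowest for Gstz1 (16.06), Pparα -/- HFD mouse 8 the highest for Ugt1a10 (9.13), Pparα hep-/- HFD mouse 2 the highest for Gstk1 (14.30) and Pparα -/- CTRL mouse 1 the lowest for Sult1a1 (15.05).

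The change on HFD differed between genotypes in the test of the difference itself for 17 named values. In Pparα hep-/- relative to WT mice these were 0.87 for Gstm1, 0.81 for Gstm3, 1.04 for Gstp1, 0.54 for Ugt2b35, -0.97 for Gstt2, -1.50 for Gstt3, -0.80 for Sult1b1 and -1.85 for Sult2a7. In Pparα -/- relative to WT mice they were 0.84 for Gstm1, 0.93 for Gstm3, 0.73 for Gstm4, -1.09 for Sult1b1, -3.36 for Sult2a7, -1.58 for Sult5a1 and -0.45 for Ugt3a1. The dimmer probes of Gstt2 and Sult5a1 gave -0.44 (adjusted p = 0.343) and -0.86 (adjusted p = 0.102) in these comparisons. Between the mutants, Pparα -/- minus Pparα hep-/-, they were 0.79 for Sult1a1 and -1.09 for Gstp1.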

How the results depend on the processing

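Of 95 differences picked by the naming rule, 95 kept direction and call with normexp background, 93 with the deposited values, 93 with the slide as block, 92 with 75th-percentile scaling, 78 without the filter on dim probes and 61 without array weights. Values in the text outside that rule were not counted here. Without weights the number of genes called was 4 for HFD in Pparα hep-/- mice, 7 for HFD in Pparα -/- mice, 9 for Pparα hep-/- against WT and 7 between the mutants on HFD, and 1, 5 and 0 for the responses of Pparα hep-/- against WT, Pparα -/- against WT and between the mutants. Without the filter, the count for HFD in Pparα hep-/- mice was 10 and those of the 3 responses 5, 5 and 1, where more probes share the adjustment. The response between the mutants gave 4 with the slide as block, 4 without the 2 WT HFD arrays and 4 without all 4 arrays that stand apart, and without those 4 arrays and without weights the responses of Pparα -/- against WT and between the mutants gave 6 and 1. Within the first wash batch, with fewer mice, 51 of 95 kept their call and 1 turned (Sult1e1 between the mutants on HFD, -0.48, adjusted p = 0.656), and within the second 56. Where not stated, the cause was not tested.

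With each mouse left out in turn, the counts ranged from 11 to 18 for HFD in WT, 11 to 18 in Pparα hep-/- and 12 to 16 in Pparα -/- mice. On CTRL they ranged from 16 to 18 for Pparα hep-/- against WT, 16 to 19 for Pparα -/- against WT and 14 to 18 between the mutants, and on HFD from 13 to 16, 17 to 20 and 10 to 14. For the responses they ranged from 10 to 16, 6 to 12 and 1 to 4. The count fell to 11 for HFD in Pparα hep-/- mice without HFD mouse 6, and to 6 for the response of Pparα -/- against WT without WT CTRL mouse 2 or 3 or WT HFD mouse 7. Between the mutants it was 1 without Pparα hep-/- CTRL mouse 8 and 4 without HFD mouse 5 or 7. Of the 95 differences, 76 kept their call in every omission.

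Mice of different groups share numbers, and the 120 pairs of the same number had a median correlation of 0.0223 (from -0.45 to 0.69) against -0.0023 for the 840 other pairs. Of 48 arrays, 11 correlated best with an array of their own number. Not every pair correlated above 0.1, so the numbers were not taken as pairs. With a replicate block 92 of 95 kept their call, and the 3 lost were Sult2a8 in Pparα hep-/- against WT on HFD (-0.66, adjusted p = 0.0685), Sult2a7 in Pparα -/- against WT on HFD (0.81, adjusted p = 0.0933) and the Gstt2 response of Pparα hep-/- against WT (-0.84, adjusted p = 0.0519). Signal over background limits Sult2b1 and the Sult2a genes that could not be tested.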
